A study of Apis mellifera with 27 samples.

Results

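Csd, Fem and Dsx are genes of the honey bee sex determination cascade. They were taken by symbol, ignoring case, from the RefSeq gene table of the assembly Amel_HAv3.1. All 3 names were found among its 12398 genes, and each is one of the 12255 genes placed on the 16 chromosomes. Every peak that overlapped the span of one of these genes, widened by 10 kb on each side, was collected, and this widened span is called the window of the gene.

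Csd (complementary sex determiner) is the primary signal of sex in the honey bee. Females are diploid and carry a pair of different Csd alleles, whereas drones develop from unfertilised eggs and carry a single allele. Active Csd protein directs female splicing of the RNA of Fem (feminizer), a close relative of Csd in sequence and the counterpart of transformer of Drosophila. Fem protein in turn directs female splicing of the RNA of Dsx (doublesex), a DNA-binding transcription factor made in female and male forms that drives sexual differentiation in insects. Sex is thus read through RNA splicing at Fem and Dsx, whereas the marks measured here sit on chromatin.

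The data were peak lists from chromatin immunoprecipitation and sequencing of brain tissue from queens and workers, which are the female castes, and from drones, which are the males. All bees were newly emerged adults of 1 mother queen, each library came from a pool of brains without the optic lobes (in workers also freed of the hypopharyngeal glands), queens had been raised from grafted larvae, and the protocols name no drug or genetic treatment. Antibodies recognised H3K27ac and H3K4me3, marks of active regulatory sequence and of active gene starts, H3K4me1, a mark of enhancers, and H3K27me3, a mark of repressed sequence. Each of the 3 castes had 2 libraries for each of the 4 marks, which gave 24 libraries, and males were compared with females as 2 drone libraries against 4 female ones. Drones are haploid and females diploid, so sex and ploidy cannot be told apart in this comparison. A pool of brain tissue mixes cell types, so fewer cells with a mark and less of the mark per cell cannot be told apart either.

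Lists held 3866 to 26256 peaks. The number of tags behind a list, recovered from its own fold and p-value columns, ran from 4.20 M to 25.1 M (M, mega). By this number, which is the depth meant throughout, drone libraries were the shallower ones for every mark. By the mapped reads that the study lists, drone libraries were not the shallower ones for any mark. The reason for this disagreement was not tested. Drone libraries held 8.76 M to 10.8 M recovered tags against 14.2 M to 21.1 M in females for H3K27ac, and 4.20 M to 5.21 M against 13.6 M to 19.5 M for H3K4me3. For H3K4me1 they held 13.1 M to 13.6 M against 15.7 M to 25.1 M, and for H3K27me3 8.69 M to 9.95 M against 13.7 M to 15.9 M. Shallow lists miss weak peaks, so a missing peak does not show that the mark is missing, and the part of depth in each drone difference was not tested beyond the thinned lists given beside it.

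Csd and Fem are neighbours. Csd spans chromosome 3 from 11771679 to 11781139, a length of 9461 bp, and Fem spans 11792751 to 11800256 on the same chromosome, a length of 7506 bp. The gap between them is 11611 bp. Their windows therefore share 8389 bp, which is 28.5% of the Csd window and 30.5% of the Fem window. Dsx lies on chromosome 5 from 3529523 to 3620990. Its span of 91468 bp is longer than that of 96.5% of genes, and 5 transcripts are listed for it against 1 each for Csd and Fem. The table gives no strand, so ends of genes are called low or high by their coordinate, and it gives no exons, so introns and untranslated regions were not told apart.

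No peak of any mark lay in the span of Csd in any of the 24 lists. The gene sits inside a stretch of 27622 bp without a single peak, from 11771151 to 11798772 on chromosome 3, which begins 528 bp below its low end and ends inside Fem, 17633 bp above its high end. Only 336 of the 80215 stretches between neighbouring peaks were longer, and the median stretch was 876 bp. A gene without a peak was nevertheless common. It held for 33.2% of all genes and for 13.1% of the 1883 genes whose length was within 1.5-fold of that of Csd. In total 682 genes, or 5.57%, lay wholly inside stretches at least as long as this one. Whether reads map as well to Csd, which has many alleles, as to other genes was not measured here.

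The Csd window was not empty, and all but 1 of its regions lay in the neighbouring gene LOC408733. H3K27ac had a region, meaning a run of overlapping peaks merged over libraries, −7.83 kb from the low end of Csd and another at −5.40 kb, both inside LOC408733, and both had a peak in all 6 lists. At the nearer of these the fold enrichment of the summit over background, as the authors' peak caller gave it, was 12.6 and 10.2 in queens, 6.23 and 7.13 in workers and 11.3 and 8.92 in drones. At the farther one it was 9.29 and 8.12 in queens, 7.0 and 5.84 in workers and 7.43 and 7.89 in drones, so drone values lay inside the female range at both. The region closest to Csd, −0.62 kb from its low end, overlapped no gene and was a single H3K27ac peak in queen replicate 2 with a fold of 4.95.

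H3K4me3 accompanied the farther LOC408733 region in 4 of 6 lists, namely both queen lists, worker replicate 1 and drone replicate 1. H3K4me1 had a peak at the nearer region in both queen lists and in no other. A pattern of both queen lists alone held for 6.21% of H3K4me1 regions genome-wide. H3K27me3 had no peak anywhere in the Csd window or the Fem window, which was also so for 59.8% of all gene windows. LOC100578464, which is protein-coding, and the pseudogene LOC100576888, which both lie between Csd and Fem, carried no peak either.

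**Figure D1:**
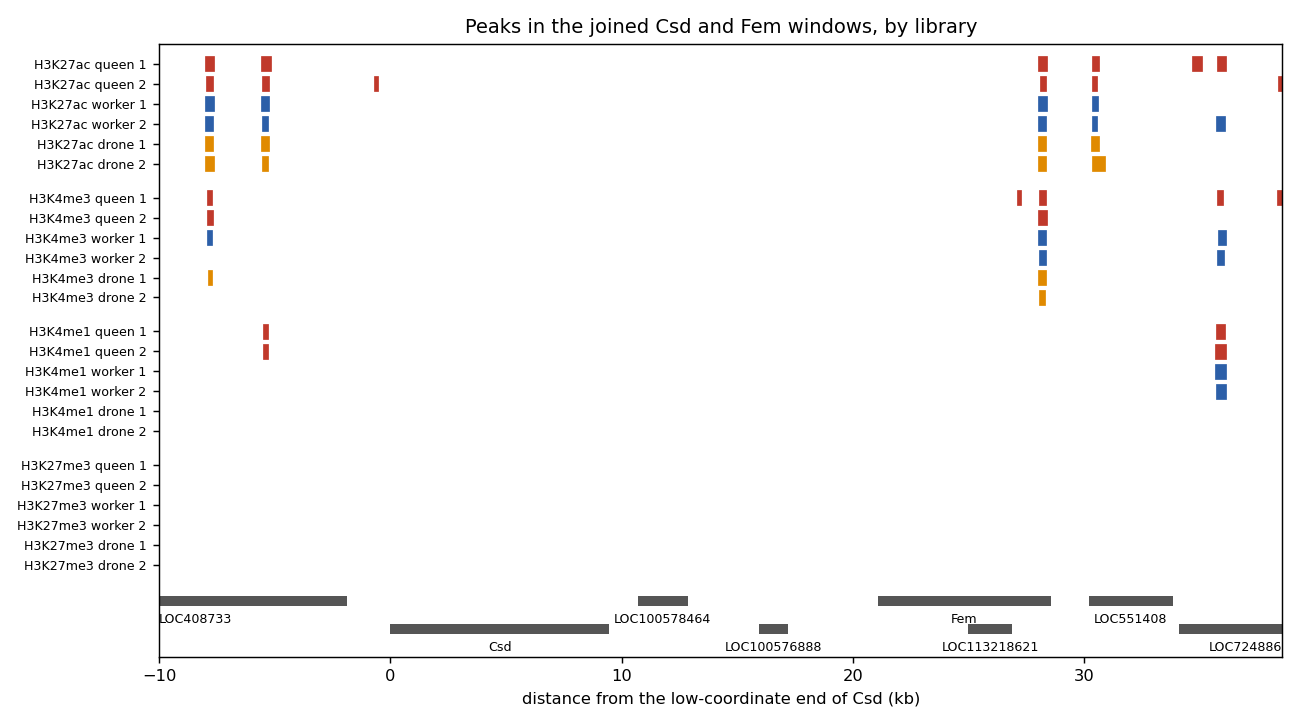
Peaks of the 24 lists (rows, by mark, caste and replicate, with queen in red, worker in blue and drone in orange) across the joined Csd and Fem windows, with distance from the low-coordinate end of Csd in kb on the horizontal axis and gene spans as grey bars. Csd lies in an empty stretch of 27622 bp, and peaks cluster in LOC408733 on one side and from the high end of Fem onwards on the other.

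Fem, unlike Csd, carried a strong active site. H3K27ac and H3K4me3 each had a peak in all 6 lists at its high end, from 11799674 to 11800071 for H3K27ac and from 11799678 to 11800067 for H3K4me3. Both regions end less than 0.2 kb inside the gene, the first 185 bp and the second 189 bp from its end. The H3K27ac fold there was 13.3 and 11 in queens, 10.1 and 11.3 in workers and 11.3 and 13.2 in drones. These values exceeded those of 91.5% to 95.1% of the peaks in their lists, and the castes overlapped. The H3K4me3 fold was 14.1 in both queen libraries, 10.3 and 7.65 in workers and 14.6 and 10.3 in drones, so by fold drone lay within or above the female range. By rank it exceeded 90.1% and 91.9% of peaks in queens, 92.4% and 83.0% in workers and 77.4% and 69.8% in drones. Both drone ranks thus lay below all female ranks. Median folds of the H3K4me3 lists were 6.49 and 6.39 in drones and 3.01 to 3.74 in females. Neither folds nor ranks are therefore on one scale between these lists.

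The rest of the Fem span held little. A single further H3K4me3 peak, 6.12 kb from the low end, occurred in queen replicate 1, and the pseudogene LOC113218621, which lies within the span of Fem, had no peak. Neither H3K4me1 nor H3K27me3 had a peak in the span of Fem. Beyond its high end, LOC551408 carried H3K27ac in all 6 lists, with folds from 2.38 to 3.59. LOC724886 carried the other regions of the window, of which none had an H3K27ac or H3K4me3 peak in drone.

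Counted over the whole window, drones had less H3K4me3 and H3K4me1 around Fem than females, and similar H3K27ac. H3K4me3 peaks covered 3.50% and 1.42% of the window in queen, 2.60% and 2.16% in workers and 1.22% and 0.993% in drones, so both drone values lay below all 4 female values. Drone minus female was −1.31 percentage points, from means of 1.11% ± 0.162 (SD, n = 2) and 2.42% ± 0.869 (SD, n = 4). H3K4me1 peaks covered 1.30% and 1.71% in queens, 1.71% and 1.56% in workers and 0% in both drone libraries, a difference of −1.57 points. Both differences gave p = 0.133 in a two-sided exact permutation test, which is the smallest value that 15 splits of 2 against 4 libraries can give, and 0.375 and 0.408 after Benjamini-Hochberg adjustment over all windows with a peak of the mark. The design cannot reach 0.05.

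Neither difference was firm once depth was levelled. The H3K4me1 value rests on 1 region in LOC724886, from 11807326 to 11807819, which had folds of 2.01 and 2.29 in queens and 2.14 and 2.43 in workers and no peak in drone. With pileups thinned to the lowest depth of the mark it had a peak in 1 queen list, both worker lists and no drone list, and the window's groups overlapped. For H3K4me3, thinning reduced the difference to −0.531 points and the same number of peaks per library reduced it to −0.142, with overlapping groups in both. In the span of Fem alone it was −1.17 points and the groups overlapped, since drone replicate 1 (4.48%) lay above worker replicate 2 (3.92%). Part of the window difference came from a LOC724886 region 14.9 kb from the low end of Fem. This region had an H3K4me3 peak in queen replicate 1 and both worker lists, and in no drone list. At the end of Fem itself the peaks of both active marks stayed in all 6 lists after thinning.

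H3K27ac around Fem showed no order of sexes. Coverage was 5.72% and 2.38% in queens, 2.41% and 3.26% in workers and 2.47% and 3.35% in drones. Drone minus female was −0.530 points (exact permutation p = 0.933, adjusted p = 1), and its sign turned to 0.229 points without queen replicate 1.

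**Figure D2:**
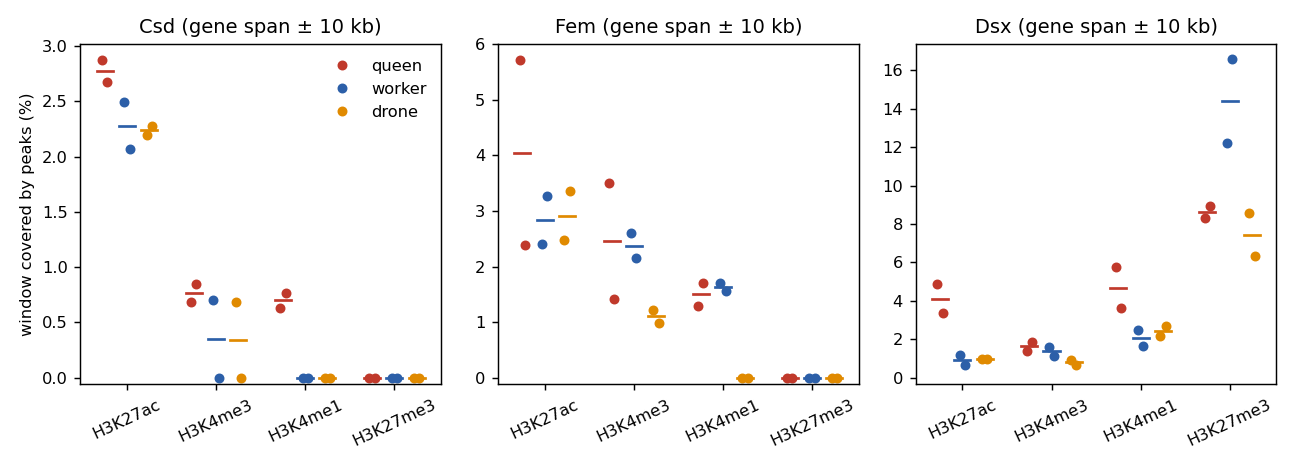
Percent of the window of each gene covered by peaks (vertical axis, one scale per gene) for each mark, with 1 point per library and a short line at the mean of the 2 libraries of a caste. Dsx H3K27ac is highest in both queen libraries (4.88% and 3.35%), Dsx H3K27me3 is highest in both worker libraries (12.2% and 16.6%), and Fem H3K4me1 is at 0 in both drone libraries.

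Dsx combined active sites at its low end and in its middle with many separate H3K27me3 regions. H3K4me3 marked the low end, from 3529314 to 3530646, in all 6 lists, starting 209 bp outside the gene. Its fold was 11.6 and 9.62 in queens, 4.28 and 4.54 in workers and 7.20 and 5.06 in drones, with drone between the female castes. As a rank within each list it exceeded 86.6% and 85.5% of peaks in queen, 70.0% and 64.3% in workers and 54.8% and 34.9% in drones. Ranks in lists of unequal length are not on one scale, since the short drone H3K4me3 lists lack many weak peaks. H3K27ac at this end was weaker, with folds of 3.44 and 3.76 in queens, 2.35 in worker replicate 1 and 2.62 and 2.19 in drones, and worker replicate 2 had no peak.

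A second active site lay inside the gene, 51.3 kb from the low end, from 3580319 to 3581277. H3K27ac was called there in all 6 lists. The fold was 16.7 and 15.5 in queens, 5.40 and 5.97 in workers and 6.11 and 3.23 in drones, so both queen values stood above the other 4. It was the strongest H3K27ac peak of the Dsx window in all 6 lists. It exceeded 96.6% and 96.3% of the peaks in queens, 81.3% and 83.1% in workers and 75.4% and 33.1% in drones. H3K4me1 was also called there in all 6 lists, at folds of 1.95 and 5.18 in queens, 3.54 and 3.04 in workers and 3.09 and 4.0 in drones, with no separation of castes. The same site had an H3K4me3 peak in all 4 female lists and in neither drone list, at folds of 3.56, 1.66, 1.96 and 2.66. This female-only H3K4me3 call was lost with equal depth, since the thinned lists kept it in 1 queen list alone.

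**Figure D3:**
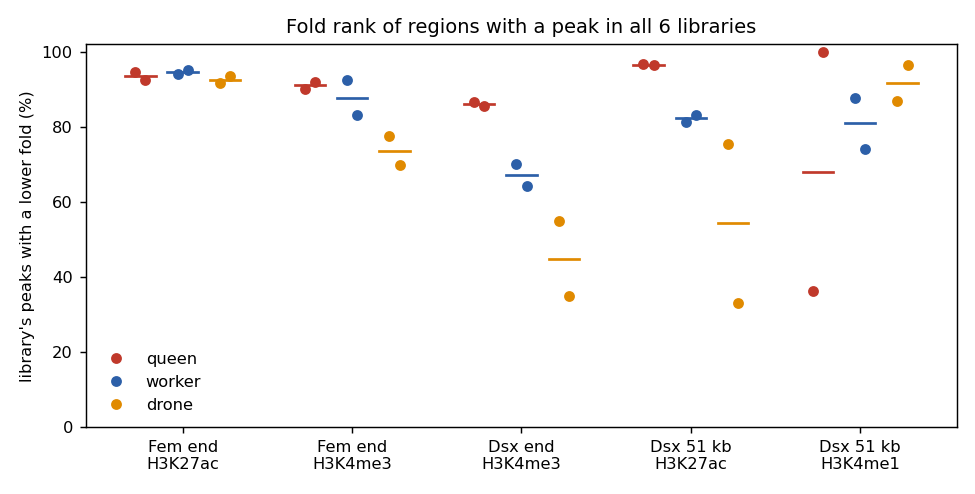
Share of the peaks of a library with a lower fold (vertical axis, percent) for 5 regions of Fem and Dsx that had a peak in all 6 libraries of the mark, with 1 point per library and a short line at the caste mean. The Fem end ranks above 91% in H3K27ac in every library. H3K27ac at the site 51 kb into Dsx ranks above 96% in both queen libraries. It ranks at 81.3% and 83.1% in workers and at 75.4% and 33.1% in drones. Ranks in lists of unequal length are not on one scale.

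Apart from these sites, the other 9 H3K27ac regions of Dsx had peaks in queen lists only. The window held 11 and 9 H3K27ac peaks in queen, 2 and 1 in workers and 2 and 2 in drones, all of them in the gene span. Of 11 regions, 7 had a peak in both queen lists and in no other list, a pattern shown by 3.5% of H3K27ac regions genome-wide. They lay between 39.0 and 78.8 kb from the low end. Most were weak, with folds from 1.70 to 5.94, and the strongest were at 60.6 kb, with 4.64 and 5.94, and at 61.5 kb, with 4.5 and 4.65.

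Peaks covered 4.88% and 3.35% of the Dsx window in queen, 1.20% and 0.662% in workers and 0.961% and 0.99% in drones. Queens thus averaged 4.11% against 0.953% in the other castes, with no overlap, a difference of 3.16 points (exact permutation p = 0.133, the smallest possible for 2 against 4 libraries). This comparison was added after the data were seen. Among all windows, 10.5% had higher H3K27ac coverage in both queen libraries than in the others, and the Csd window was one more of them, at 2.87% and 2.67% against 2.07% to 2.49%. The queen H3K27ac libraries held 15.7 M and 14.2 M recovered tags. Worker libraries held more, at 21.1 M and 20.5 M, and drone libraries fewer, at 10.8 M and 8.76 M. The part of depth in the queen difference was not tested beyond the thinned lists. The difference at Dsx was 2.65 points after thinning and 2.43 with equal numbers of peaks, and 4 of the 7 queen regions kept a peak in both queen lists after thinning.

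H3K27me3 was the most extensive mark of Dsx. It formed 47 separate regions of 198 to 1179 bp in the window, 40 of them in the gene, and 16 had a peak in all 6 lists, as 30.7% of H3K27me3 regions did genome-wide. The last of these 16, 98.8 kb from the low end, lies beyond Dsx in the lncRNA gene LOC102656230. The one before it, at 96.7 kb, also lies beyond Dsx and overlaps no gene. The mean coverage of 10.1% exceeded that of 91.5% of gene windows, but 59.8% of all gene windows had no H3K27me3 peak. Folds were moderate, with medians per library from 2.76 to 3.24. Coverage was 8.30% and 8.93% in queens, 12.2% and 16.6% in workers and 8.56% and 6.32% in drones, and peaks numbered 26 and 27, 34 and 44, and 29 and 21 in the same order. Both worker libraries lay above the other 4, whereas queen and drone overlapped.

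Workers averaged 14.4% of the Dsx window under H3K27me3 against 8.03% in queens and drone. The difference of 6.36 points was again tested after the data were seen (exact permutation p = 0.133, the smallest possible), and it was 5.73 points after thinning and 4.17 without worker replicate 2. Higher worker coverage without overlap was frequent, at 30.3% of windows with this mark. Only 2 of the 47 regions, at −3.32 and 64.1 kb, had a peak in both worker lists and no other, against 2.93% of H3K27me3 regions genome-wide.

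The marks were unevenly placed along Dsx. From 40 to 64 kb, bounds chosen after the positions were seen, H3K27me3 formed 7 regions and none had a peak in more than 2 lists. The first 11 kb of the gene held none. Outside the stretch from 40 to 64 kb, 30 of 40 regions had a peak in 3 or more lists. The same stretch held 6 of the 11 H3K27ac regions, including the site at 51.3 kb. Active and repressive marks nevertheless met at several sites. Of the 7 queen H3K27ac regions, 6 overlapped an H3K27me3 peak of at least 1 worker library, but only 3 did so in both worker libraries. The rest of these 6, at 47.1, 60.6 and 61.5 kb, met a worker H3K27me3 peak in replicate 2 alone. An H3K27me3 peak of at least 1 queen library was overlapped by 4 of the 7, and one of at least 1 drone library by 3.

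H3K4me1 and H3K27me3 shared sites at Dsx when lists of all castes were merged. H3K4me1 formed 25 regions, and 24 of them overlapped an H3K27me3 region, against 31.3% of H3K4me1 regions genome-wide. Of the 11 H3K27ac regions 8 overlapped H3K27me3, against 8.26% genome-wide, and 6 overlapped H3K4me1, against 54.7% genome-wide. These shares join lists of different castes. Among regions with a peak in both lists of a caste, H3K4me1 overlapped H3K27me3 at 7 of 9 in queens, 3 of 4 in workers and 2 of 5 in drones. H3K27ac overlapped H3K27me3 at 2 of 9 such regions in queens, 0 of 1 in workers and 0 of 2 in drones. No genome-wide share under this rule is given here, so these counts have no yardstick. The Dsx window also had more H3K27me3 than 91.5% of gene windows, where 59.8% of all gene windows had none. The genome-wide shares above are not matched for this, so whether sharing at Dsx exceeds that of similarly covered windows was not tested. The region most constant in H3K4me1 besides the site at 51.3 kb lay at 18.6 kb, had folds from 2.04 to 2.60 in all 6 lists, and overlapped H3K27me3 that was also called in all 6.

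**Figure D4:**
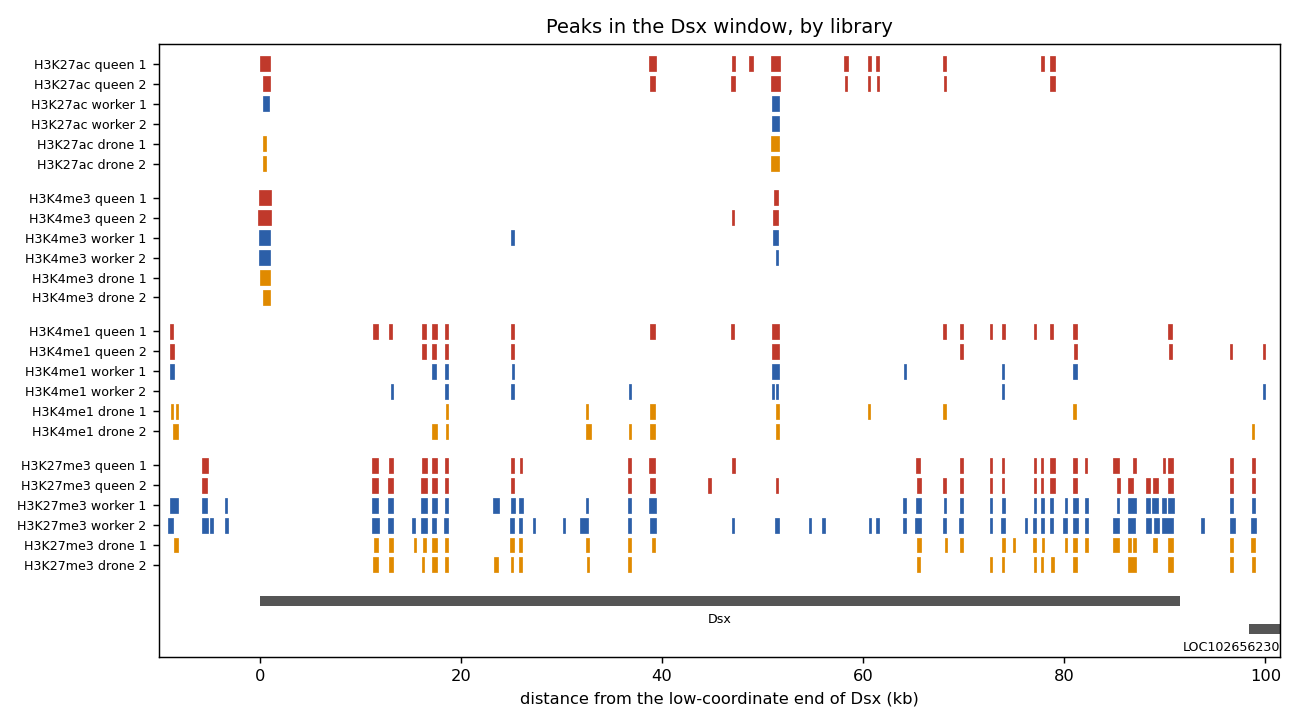
Peaks of the 24 lists (rows, by mark, caste and replicate, with queen in red, worker in blue and drone in orange) across the Dsx window, with distance from the low-coordinate end of the gene in kb on the horizontal axis and gene spans as grey bars. The low end and the site at 51.3 kb carry active marks in all castes, further H3K27ac peaks are in queen rows, and H3K27me3 recurs across rows in much of the gene, but not in its first 11 kb or between 40 and 64 kb.

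Between the sexes, H3K4me3 was the mark in which the Dsx window separated. It covered 1.4% and 1.86% in queens, 1.62% and 1.13% in workers and 0.931% and 0.656% in drones, with both drone values below every female value. Drone minus female was −0.711 points, from means of 0.794% ± 0.195 (SD, n = 2) and 1.5% ± 0.313 (SD, n = 4), with an exact permutation p = 0.133 and an adjusted p = 0.375. After thinning the difference was −0.336 points and the groups still did not overlap. Thinning dropped peaks but left the width of each kept peak as it was called. The thinned worker and drone lists held only the peak at the low end. Their remaining separation was thus one of peak width, and the part of depth in that width was not tested. With all peaks, each drone list held only the peak at the low end, against 2 or 3 peaks in each female list.

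Lower H3K4me3 in drones was widespread. Drone coverage lay below all female values in 2 of the 3 windows, Fem and Dsx, and in 34.9% of all 10601 windows with the mark, or 21.3% after thinning. The median difference over all windows was −0.979 points, which is larger than that of Dsx and smaller than that of Fem. In the opposite direction none of the 3 windows separated, against 0.651% of all. At Csd, coverage was 0.686% and 0.845% in queens, 0.703% and 0% in workers and 0.686% and 0% in drones, so the groups overlapped.

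In the other marks the sexes overlapped at Dsx when all peaks were used. For H3K27ac, drone minus female was −1.55 points (exact permutation p = 0.533, adjusted p = 0.957), and −0.761 without queen replicate 1. The queen mean was 4.11%, the worker mean 0.930% and the drone mean 0.975%. None of the 3 windows separated in either direction, against 6.82% of all windows with drone higher and 18% with drone lower. At Csd the H3K27ac difference was −0.290 points (exact permutation p = 0.4, adjusted p = 0.841), and the median over all windows was −0.414.

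H3K4me1 covered 5.74% and 3.61% of the Dsx window in queen, 2.48% and 1.64% in workers and 2.15% and 2.69% in drones. The drone mean lay between those of the female castes, with overlap between drone and worker libraries, and the difference of −0.948 points had an exact permutation p of 0.667. It was −0.156 without queen replicate 1 and −0.137 after thinning. With equal peak numbers it was −0.980, and both drone values then lay below all female values. Fem was the only 1 of the 3 windows that separated in this mark, with drone lower, as in 13.2% of all windows, and none had drone higher, as in 19.5%. For H3K27me3, drone minus female at Dsx was −4.06 points (exact permutation p = 0.267, adjusted p = 0.596). It was −2.37 without worker replicate 2, and −4.78 with −log10 q of at least 5, where both drone values lay below all female values. With all peaks no window of the 3 separated, against 8.22% of windows with drone higher and 28.5% with drone lower.

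Regions of 1 sex were counted among the regions of each window. The Csd, Fem and Dsx windows held 3, 5 and 11 regions of H3K27ac and 1, 4 and 4 of H3K4me3. They held 1, 1 and 25 regions of H3K4me1 and 0, 0 and 47 of H3K27me3. With so few regions, the counts below were not tested against the genome-wide shares. Among all regions of the 3 windows, 1 was found in both drone lists and in no female list, an H3K4me1 region 32.7 kb into Dsx from 3561958 to 3562492. Its folds were 2.05 and 2.30, and with −log10 q of at least 5 it was kept in only 1 drone list. After thinning and with equal peak numbers it stayed in both drone lists and in no female list. Genome-wide, 8.78% of H3K4me1 regions were drone-only and 3.01% were female-only. The female-only ones here were the LOC724886 region near Fem and a region 25.1 kb into Dsx, with folds of 2.08 and 2.48 in queens and 2.45 and 1.99 in workers. After thinning and with equal peak numbers the region in Dsx kept a peak in 1 queen list and both worker lists. With −log10 q of at least 5 it kept both queen lists and 1 worker list.

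The H3K4me3 call at 51.3 kb of Dsx was the single female-only region of that mark, against 4.82% of H3K4me3 regions genome-wide, and none was drone-only, against 0.549%. In H3K27me3 a region −5.47 kb from the low end of Dsx was female-only, against 3.1% genome-wide, with folds of 1.99 and 2.27 in queens and 2.30 and 2.21 in workers, and all 4 female peaks were kept after thinning. No H3K27me3 region was drone-only, against 4.02%. In H3K27ac no region of the 3 windows was found in 1 sex only, against 2.74% drone-only and 4.28% female-only.

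Of 12 names searched for other genes of the cascade or related to it, 1 was found in the table. The table gives no descriptions, so only symbols and synonyms could match. A gene that was not found may be listed under another name. This was tra2 on chromosome 11, whose Drosophila counterpart is the splicing partner of transformer. Its window was richer in active marks than those of Csd, Fem and Dsx, with H3K27ac coverage of 12.7% and 7.40% in queens, 9.32% and 8.55% in workers and 5.73% and 7.45% in drones. The sexes overlapped in H3K27ac (−2.90 points, exact permutation p = 0.267) and in H3K4me3 (−1.14 points, exact permutation p = 0.4). tra2 had no H3K27me3 peak, so among Csd, Fem, Dsx and tra2 only Dsx had that mark in its window.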

How the data were processed

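Per the labels and the study's methods, the authors mapped reads with BWA (version 0.7.17) to Amel_HAv3.1 and called peaks per library with MACS2, genome size 270000000 bp. The deposited lists give each summit's fold enrichment, a ratio over background, with its p-value and q-value as −log10. The 3 inputs had no file analysed here, and read counts were not used here, so the study's differential test (DiffBind) was not run.

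Percent of each window covered by peaks was computed per library with Python 3.11.15, numpy 2.4.6, pandas 2.3.3 and scipy 1.17.1. Drone and female libraries were compared by two-sided exact permutation, adjusted over all windows with a peak of the mark. Separate groups are those without overlap. Tag depths were recovered from fold and p-value, with 99.9% to 100% of summit pileups whole within 0.05, and pileups were thinned to the lowest depth of the mark, keeping −log10 p of at least 4. The scripts were tested on simulated data. Alternatives were −log10 q of at least 5, equal peak numbers, thinning, flanks of 0 and 2 kb, leaving out the shared window, peak number, summit position, a replicate block and leaving out each library. Named genes were Csd, Fem, Dsx, all genes in their windows, pathway genes found by name and the 3 genes most like each member.

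Members and lists were chosen with earlier results of these data known. Replicates were separate pools, so p-values measure the spread between pools. In tests of drone against female that spread includes the difference between queens and workers, since the 4 female libraries join both castes. For Dsx H3K27ac the female SD was 1.95 points, with a queen mean of 4.11% and a worker mean of 0.930%.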

Additional observations from a re-analysis of the deposited data

How the results depend on the processing

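Of 176 recomputed drone minus female differences, 162 kept their direction or stayed at 0, though sizes changed. This count overstates stability. It includes 15 differences each for Csd and Fem H3K27me3, which were 0 in every setting because no library had a peak. The replicate block and the summit position also returned the main value for every gene and mark. With equal peak numbers Fem H3K4me3 was −0.142 points, and with −log10 q of at least 5 Fem H3K4me1 was −0.426. No alternative could bring an exact p to 0.05, so stability of calls refers to groups without overlap. Drone minus female at Csd became 0 without flank in H3K27ac, H3K4me3 and H3K4me1, and with a 2 kb flank in H3K4me3 and H3K4me1, since these peaks lie farther out. It was also 0 with equal peak numbers in H3K4me3, where no library kept its Csd peak. Leaving out single libraries gave −0.558 to 0.127 points for Csd H3K4me3, positive without drone replicate 2. For Fem H3K27ac it gave −0.970 to 0.229, and the value was 0.345 with −log10 q of at least 5 and with equal peak numbers, 0.168 after thinning and 0.324 with a 2 kb flank. Fem H3K4me1 became 0 without flank and with a 2 kb flank. Over all windows, H3K4me3 was higher in drone in 5.09% with equal peak numbers and 2.08% after thinning, and lower in 21.3% after thinning. Drone-only H3K4me3 regions were 3.68% with equal peak numbers and 1.45% after thinning, and female-only ones 3.13% and 1.77%. After thinning, 12.5% of windows had higher H3K27me3 in drone, and 1.91% of H3K27me3 regions were female-only.

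With the replicate number as a replicate block, Fem H3K4me3 kept −1.31 points with an exact permutation p of 0.222, and Dsx H3K4me3 kept −0.711 with the same p. Deviations of equally numbered libraries correlated from −0.277 to 0.443 over 12 pairs, 5 of them over 0.1, so the numbers were not treated as pairs. Weak peaks are limited by depth, and drone H3K4me3 was the shallowest set in recovered tags.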

Other observations

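The genes whose coverage moved most like that of each member were listed by Pearson's r over the 24 libraries, after the mean of each mark was subtracted, among 11914 genes with such values. Libraries of 1 caste and depth are shared by all genes, so r is a description. For Dsx they were LOC552561 (r = 0.947), LOC411685 (r = 0.906) and LOC100576167 (r = 0.898). LOC552561 and LOC100576167 are close neighbours on chromosome 9, so their windows share peaks, and all 3 carried H3K27me3, at mean coverages of 5.19%, 5.26% and 10.2%. Dsx coverage varied most in H3K27me3, from 6.32% to 16.6%, so choosing genes by r favours genes with that mark. For Fem they were LOC724418 (r = 0.862), LOC551458 (r = 0.841) and LOC412886 (r = 0.833), and for Csd LOC551847 (r = 0.851), LOC102653708 (r = 0.837) and LOC102654159 (r = 0.832). The 3 genes listed for Csd had no H3K27me3 peak. The Csd window had none either, so choosing genes by r favours genes whose H3K27me3 does not vary. Presence or absence of H3K27me3 in the listed genes is thus no separate result.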
